A study of Mus musculus with 4 samples.

Results

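Metallothioneins and 2 genes that work with them were followed through the cells of mouse mammary tumours grown in hosts with or without interleukin 1α. The members were taken by symbol: Mt1, Mt2, Mt3, Slc30a1 and Mtf1, which are 5 of the 31053 mouse genes counted. They were chosen with the values in T and NK cells in view, where Mt3 was higher in IL1α-/- hosts, so the members' values in T and NK cells between the hosts are a description with no test. Each tumour came from HER2+ H605 mammary tumour cells injected in the mammary pad, and the recipient mice were FVB/NJ, aged 6 to 8 weeks. There were 2 wild-type (WT) and 2 IL1α-/- hosts, and all 4 tumours were taken at day 14, digested, enriched for live cells and counted with 10x Genomics 3′ v3.1 chemistry. The knockout is in the host alone, since the same tumour line went into both kinds of mouse. The tumours were collected as 2 pairs on separate days, and the labels do not say which samples share a day.

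Metallothioneins are small cysteine-rich proteins that bind zinc and copper and buffer the free metal in the cell. Mt1 and Mt2 are made in most tissues and are induced by zinc, glucocorticoids and inflammatory signals, while Mt3 is best known from the brain. The transcription factor encoded by Mtf1 senses zinc, binds metal response elements and switches on Mt1, Mt2 and Slc30a1. Slc30a1 encodes the zinc exporter of the plasma membrane, and metallothionein is known to be raised in exhausted T cells of mouse tumours.

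Promoters are shown with the core of the metal response element marked, since the protein encoded by Mtf1 binds that element. The number of cores depends on the window, as given below the sequences. In GENCODE vM21 (mm10) Mt4, Mt3, Mt2 and Mt1 lie in this order on the plus strand of chromosome 8, over 43.1 kb, at 94137197 to 94139031, 94152607 to 94154146, 94172664 to 94173568 and 94179082 to 94180327. Slc30a1 spans 191906767 to 191913247 on chromosome 1 and Mtf1 spans 124802104 to 124849800 on chromosome 4, both on the plus strand. The sequences are RefSeq's (GRCm38.p6), plus strand, 5′ to 3′, the 250 bases before the RefSeq start of Mt1 (chr8:94178839-94179088), Mt2 (chr8:94172368-94172617), Mt3 (chr8:94152357-94152606) and Slc30a1 (chr1:191906531-191906780). Capitals mark the core of the metal response element, searched as TGCACNC or TGCGCNC on both strands.
Mt1: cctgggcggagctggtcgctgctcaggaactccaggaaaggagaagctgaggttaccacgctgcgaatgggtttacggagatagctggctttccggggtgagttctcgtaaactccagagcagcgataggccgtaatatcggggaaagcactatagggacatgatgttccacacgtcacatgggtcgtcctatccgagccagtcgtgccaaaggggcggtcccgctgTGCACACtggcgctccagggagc
Mt2: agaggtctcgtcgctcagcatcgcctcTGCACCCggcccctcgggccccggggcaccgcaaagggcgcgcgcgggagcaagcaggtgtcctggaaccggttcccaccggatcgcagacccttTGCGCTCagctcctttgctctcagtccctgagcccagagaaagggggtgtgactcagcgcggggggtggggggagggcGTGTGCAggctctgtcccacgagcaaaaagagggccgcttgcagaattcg
Mt3: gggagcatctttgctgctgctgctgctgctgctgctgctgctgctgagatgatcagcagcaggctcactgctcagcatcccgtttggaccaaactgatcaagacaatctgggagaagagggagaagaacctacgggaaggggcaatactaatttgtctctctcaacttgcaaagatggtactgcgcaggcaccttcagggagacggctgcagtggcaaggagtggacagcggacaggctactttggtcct
Slc30a1: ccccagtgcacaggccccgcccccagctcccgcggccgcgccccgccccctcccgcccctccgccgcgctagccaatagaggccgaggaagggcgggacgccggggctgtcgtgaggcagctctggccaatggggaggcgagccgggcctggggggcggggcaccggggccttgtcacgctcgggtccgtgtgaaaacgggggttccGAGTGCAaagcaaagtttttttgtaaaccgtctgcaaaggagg

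Counted back from the start, the Mt1 window held 1 match, beginning at -23. The Mt2 window held 3, beginning at -223, -128 and -50. Slc30a1 had 1, beginning at -43, and the Mt3 and Mtf1 windows had 0. Of 32851 RefSeq starts, 21.4% had at least 1 match in the same 250 bases and 1.26% had at least 3. Over the whole 300 bases, with the 50 after the start, the matches were 3 for Mt1, 4 for Mt2, 1 for Mt3, 2 for Slc30a1 and 0 for Mtf1. The counts thus depend on the start used and on where the window ends, that of Mt1 above all. A match is a run of letters and shows neither binding nor its absence. No 50-base stretch of any member's annotated transcripts occurs in a transcript of another gene, so reads of that length would not be split between the metallothioneins.

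The targeted gene, Il1a, had 65 and 109 UMIs (unique molecular identifiers, 1 per captured RNA molecule) in the cells of the WT hosts and 1 and 0 in those of the IL1α-/- hosts. The labels do not say which bases of the gene are deleted. The libraries held 23462739 and 28999819 mouse UMIs (WT) and 6704859 and 15297495 (IL1α-/-), with a median of 1348 to 4200 UMIs per cell. In all, 14066 cells were kept, and any pair of libraries shared between 0 and 5 barcodes. Clustering gave 9 classes named from their markers, each called here by its name with "-like", and T/NK-like cells made up 58.6% to 79.0% of a sample. A level is given in CPM, the UMIs of the gene per 1000000 mouse UMIs of that class in that sample. The p-values between hosts rest on 2 samples per group and measure the spread between these tumours. Each UMI stands for 1 captured 3′ end, so these levels do not grow with gene length. Tumour epithelial-like cells numbered 446 and 250 in the WT hosts but 29 and 5 in the IL1α-/- hosts, and neutrophil-like cells 32, 68, 6 and 9, so the hosts were not compared in either class.

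Over all called cells the members held 28073 UMIs of Mt1, 7512 of Mt2, 426 of Mt3, 840 of Slc30a1 and 920 of Mtf1. Mt1 and Mt2 were carried by stromal cells and phagocytes, while Mt3 was carried almost wholly by lymphocytes. Mt4, the metallothionein of stratified epithelium, had 0 UMIs, which allows up to 0.0486 CPM.

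Fibroblast-like cells had the highest Mt1, at 1904 and 1326.5 CPM in the WT hosts and 2661 and 3486 CPM in the IL1α-/- hosts. As a mean over the 4 samples Mt1 stood at 2344 ± 937 CPM (SD, n = 4) in fibroblast-like cells, 982 ± 431 in mononuclear phagocyte-like cells, 351 ± 251 in conventional dendritic-like cells, 71.2 ± 59.7 in T/NK-like cells and 8.43 ± 3.99 in plasmacytoid dendritic-like cells. Each class was above the next in 4 of 4 samples. The exact 2-sided sign-flip permutation test over samples gave p = 0.125 for each of these 4 steps, which is the smallest that 4 samples allow (adjusted p = 0.212 over the 22 class comparisons made).

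Mt2 followed the same order, with 785 ± 349 CPM in fibroblast-like cells, 149 ± 153 in mononuclear phagocyte-like cells, 26.0 ± 23.5 in conventional dendritic-like cells, 13.1 ± 11.3 in T/NK-like cells and 1.02 ± 1.46 in plasmacytoid dendritic-like cells (SD, n = 4). The step from conventional dendritic-like to T/NK-like cells held in 3 of 4 samples (exact permutation p = 0.375), so these neighbours did not differ beyond their spread. Fibroblast-like cells, 5.88% to 9.45% of the cells, held 54.3% to 73.1% of the Mt1 UMIs and 72.6% to 89.0% of the Mt2 UMIs of a sample. In tumour epithelial-like cells of the WT hosts Mt1 was at 162 and 214 CPM and Mt2 at 5.04 and 16.1 CPM.

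Mt3 had another distribution: T/NK-like cells held 419 of its 426 UMIs, and 95.0% to 98.7% in each sample. Conventional dendritic-like cells had 4, and fibroblast-like, mononuclear phagocyte-like and B/plasma-like cells 1 each. There were 0 in the 9786516 UMIs of tumour epithelial-like cells, which allows up to 0.307 CPM, and 0 in plasmacytoid dendritic-like cells, which allows up to 1.28 CPM. These limits, like all intervals here, cover counting error only.

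Slc30a1 was highest in mononuclear phagocyte-like cells, at 35.3 ± 10.6 CPM (SD, n = 4), and above plasmacytoid dendritic-like cells (18.4 ± 11.1) in 4 of 4 samples (exact permutation p = 0.125). Fibroblast-like (12.8 ± 3.87) and T/NK-like cells (12.1 ± 1.85) did not differ beyond their spread. Mtf1 was the most even member over the 5 classes compared between hosts: its means ran from 12.5 ± 2.76 CPM in fibroblast-like cells to 23.0 ± 14.3 CPM in conventional dendritic-like cells, and no neighbouring pair of these 5 was ordered alike in all 4 samples.

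**Figure D1:**
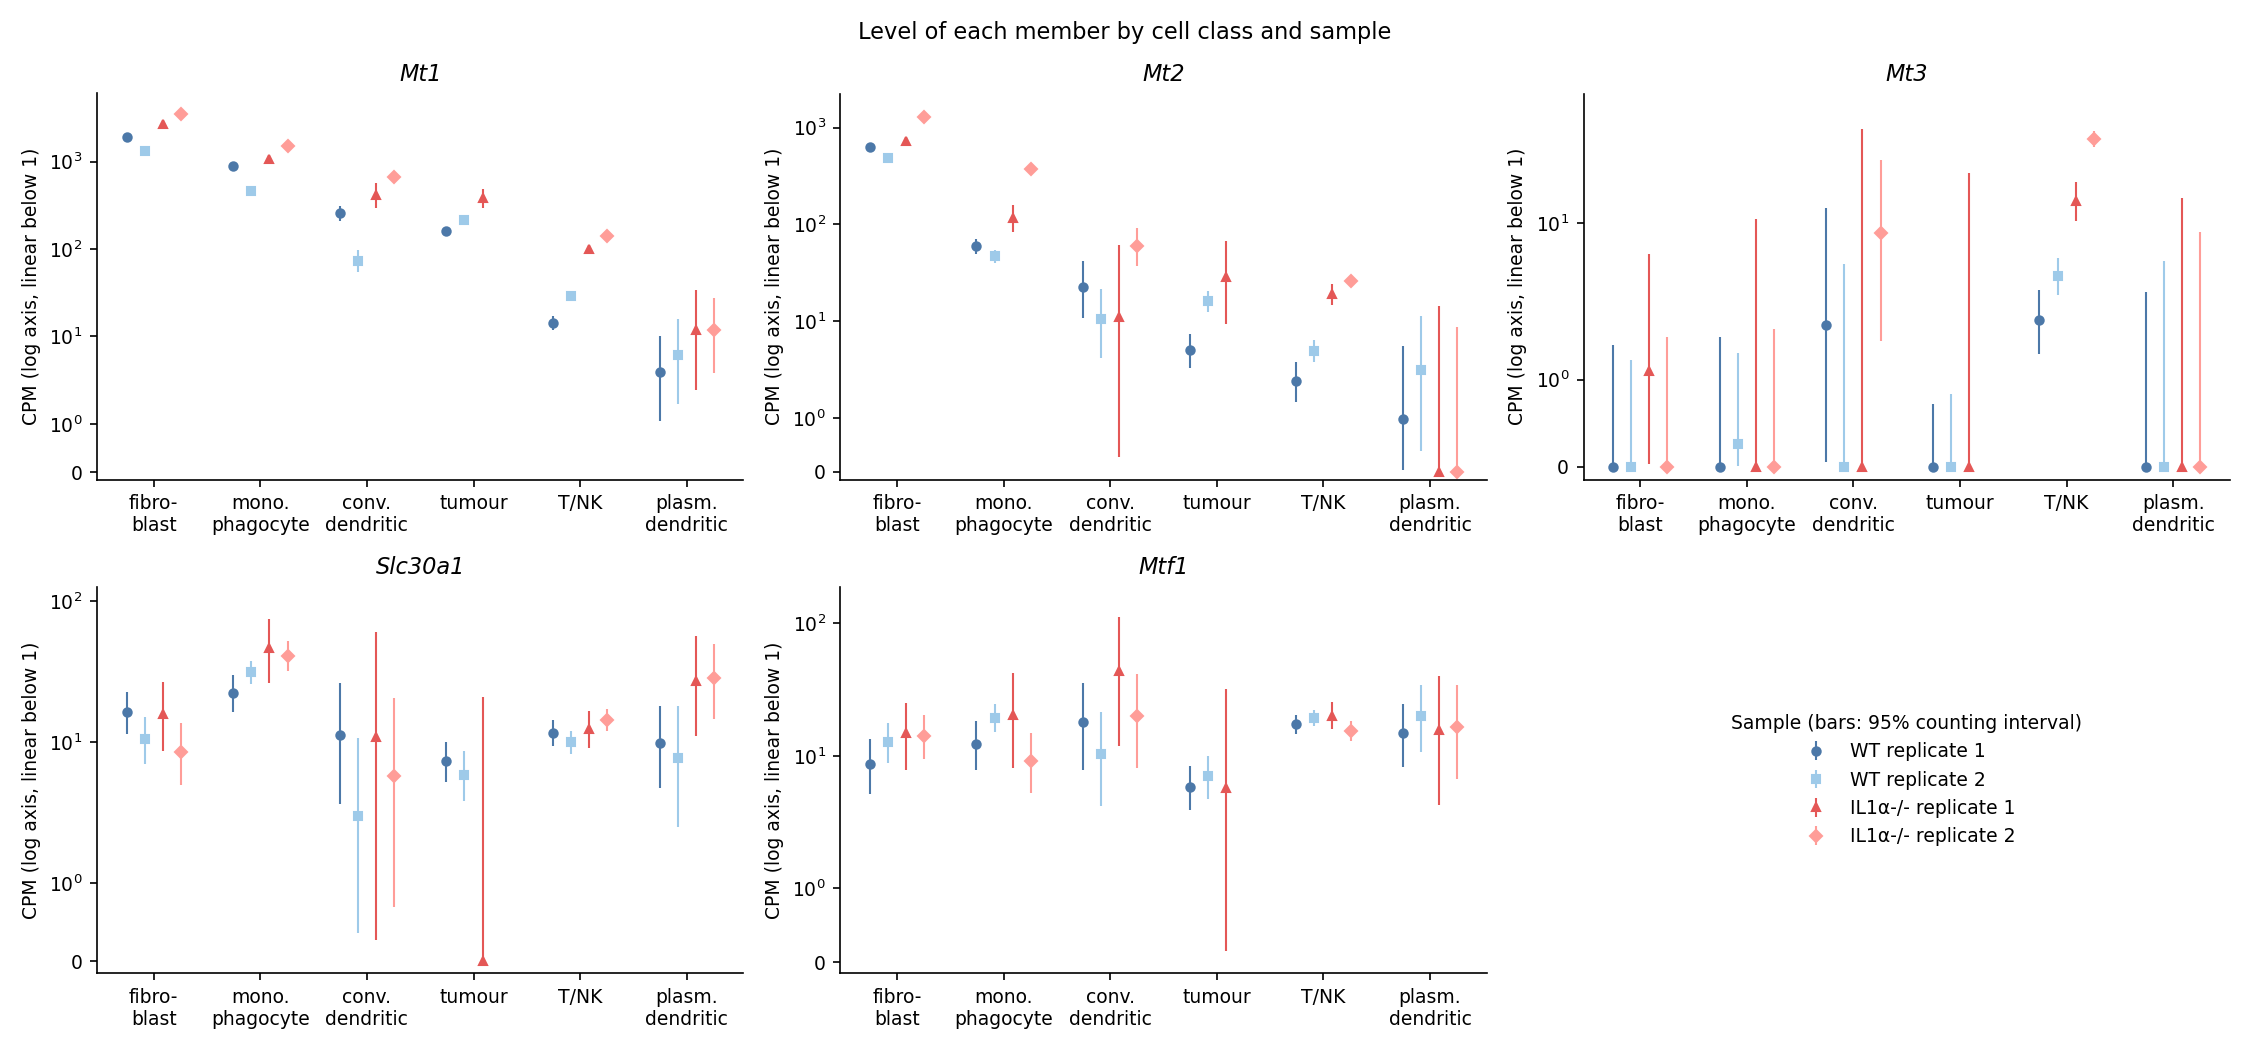
Level of each member (CPM, symmetric log axis) by cell class, with 1 point per sample for the 2 WT and 2 IL1α-/- hosts. Classes with under 20 cells in a sample have no point for it. B/plasma-like, neutrophil-like and mast/basophil-like cells are not drawn. Mt1 and Mt2 are highest in fibroblast-like cells. In the classes drawn other than T/NK-like cells, Mt3 lies near 0 with 2 exceptions. These are conventional dendritic-like cells of WT replicate 1 (2.25 CPM, 1 UMI) and IL1α-/- replicate 2 (8.62 CPM, 3 UMIs).

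Beyond the level, the mix of Mt1 and Mt2 was read in each class. Mt2 made up 24.9%, 26.9%, 21.6% and 26.9% of the Mt1 and Mt2 UMIs in fibroblast-like cells (WT replicates 1 and 2, then IL1α-/- replicates 1 and 2). In T/NK-like cells the share was 14.5%, 14.5%, 15.8% and 15.6%. The free RNA of near-empty droplets had a share of 18.1%, 17.9%, 17.6% and 25.6%, and the share in T/NK-like cells of the WT hosts cannot be told apart from it, as shown further on. For mononuclear phagocyte-like cells it was 6.23%, 9.20%, 9.73% and 19.97%, with IL1α-/- replicate 2 apart from the rest. Fibroblast-like cells were above mononuclear phagocyte-like cells in 4 of 4 samples (exact permutation p = 0.125, the smallest that 4 samples allow).

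**Figure D2:**
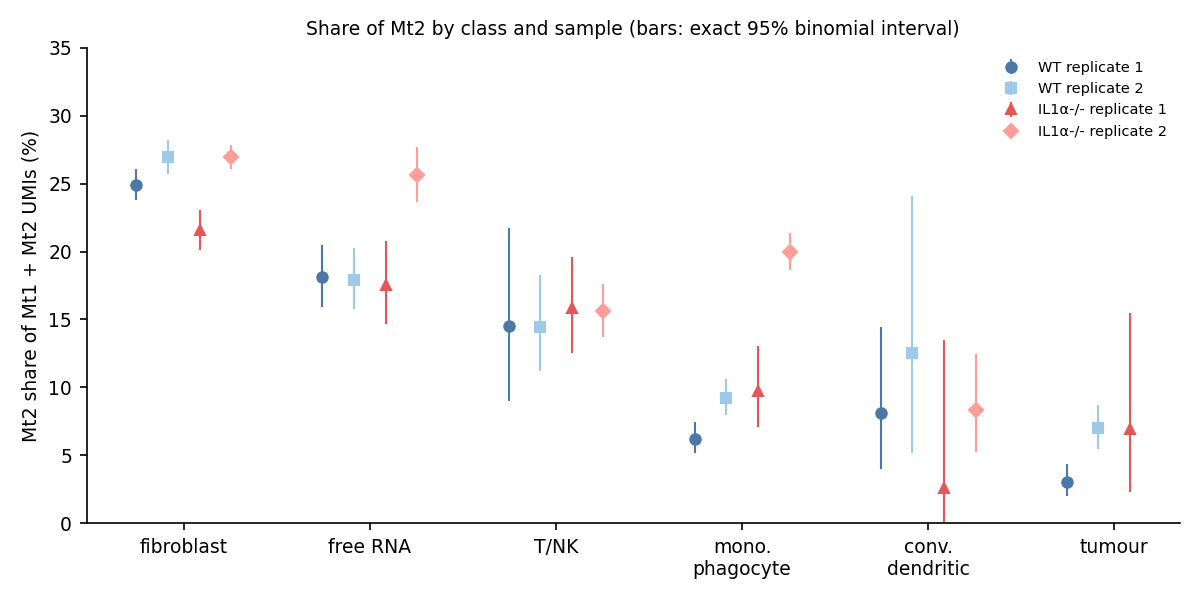
Mt2 as a percent of the Mt1 and Mt2 UMIs together, by cell class and in the free RNA of near-empty droplets, with 1 point per sample. Fibroblast-like cells lie at 21.6% to 26.9%, above the other cell classes drawn in every sample. Tumour epithelial-like cells of IL1α-/- replicate 2 are not drawn. These 5 cells held 101 UMIs of Mt1 and 60 of Mt2, a share of 37.3%, above the fibroblast-like cells of that sample.

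In T/NK-like cells the 3 metallothioneins were higher in both IL1α-/- hosts than in either WT host. Mt3 had 19 and 54 UMIs in this class in the WT hosts against 51 and 295 in the IL1α-/- hosts, which is 2.41 and 4.60 CPM against 13.9 and 34.6 CPM. The groups did not overlap, and the second IL1α-/- sample stood well above the first. The means were 3.51 ± 1.55 and 24.2 ± 14.7 CPM (SD, n = 2 each), and the fitted log2 fold change was 2.83 ± 0.46 (SE). Without IL1α-/- replicate 2 it was 1.94, and without WT replicate 2 it was 3.43.

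Mt1 was at 14.2 and 29.2 CPM in T/NK-like cells of the WT hosts and at 101 and 140.4 CPM in those of the IL1α-/- hosts. Its log2 fold change was 2.49 ± 0.33 (SE), and 3.15 without WT replicate 2. Mt2 was at 2.41 and 4.94 CPM in the WT hosts and at 19.0 and 25.9 CPM in the IL1α-/- hosts, a log2 fold change of 2.61 ± 0.34 (SE), and 3.29 without WT replicate 2. For neither gene did the groups overlap, and the differences were of about the same size as that of Mt3.

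The partners of the metallothioneins differed far less. Slc30a1 was at 11.7 and 9.97 CPM in the WT hosts and at 12.5 and 14.4 CPM in the IL1α-/- hosts, with a log2 fold change of 0.37 ± 0.21 (SE). Mtf1 was at 17.3 and 19.4 CPM in the WT hosts and at 20.1 and 15.5 CPM in the IL1α-/- hosts, with overlapping groups and a log2 fold change of -0.04 ± 0.20 (SE). The direction for Mtf1 flipped without WT replicate 2 (0.08) and without IL1α-/- replicate 2 (0.14). For 4 of the 5 members both IL1α-/- samples lay above both WT samples, against 24.7% of the 11079 genes tested in this class. By edgeR's quasi-likelihood test 4.9% of genes passed the adjusted threshold of 0.05, 2.98% as higher and 1.92% as lower in the IL1α-/- hosts; the members were chosen on this contrast, so nothing is read from their place among these.

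**Figure D3:**
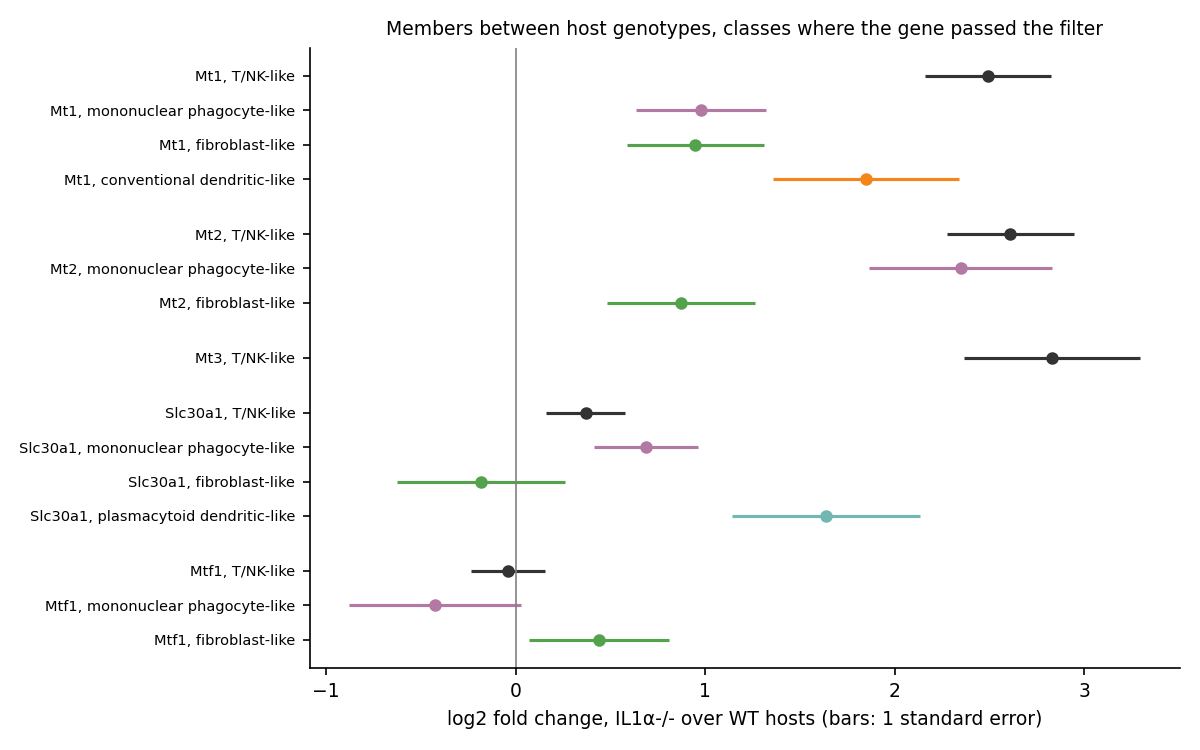
Log2 fold change of each member that passed the filter on low counts, IL1α-/- over WT hosts, in each class compared, with bars of 1 standard error. The metallothioneins lie to the right of 0 in each class where they were fitted, from 0.87 to 2.83, and Mtf1 lies on either side of 0.

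Depth differed between these samples, with a median of 2826.5 and 4074 UMIs per T/NK-like cell in the WT hosts and 1239 and 2689 in the IL1α-/- hosts. With each cell thinned to 1000 UMIs, Mt3 was seen in 0.137% and 0.307% of T/NK-like cells of the WT hosts and in 1.18% and 1.53% of those of the IL1α-/- hosts. Unthinned, the shares were 0.707%, 1.49%, 1.90% and 5.98%. Shallower cells were left out of the thinned shares, which kept 2190, 2277, 1693 and 2228 cells. Mt1 was seen in 1.42% and 1.45% of thinned cells of the WT hosts against 5.85% and 5.66% in the IL1α-/- hosts. In plasmacytoid dendritic-like cells, the class with the lowest Mt1, that share was 0%, 1.09%, 2.13% and 1.27%.

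The free RNA of near-empty droplets was rich in Mt1, at 482, 410.1, 682 and 1104 CPM, and held Mt3 at 2.59, 1.71, 4.03 and 10.6 CPM. Both are higher in the IL1α-/- samples. Free RNA made up at most 5.68% to 9.23% of the T/NK-like UMIs. With that upper amount taken away, Mt1 in T/NK-like cells was at 0, 4.63, 48.4 and 77.7 CPM and Mt3 at 2.17, 4.50, 13.5 and 34.0 CPM. Mt2 in these cells came to 0, 0, 7.79 and 4.32 CPM. Mt3 thus barely moved, while Mt1 and Mt2 lost all of their level in WT replicate 1. Mt2 lost all of it in WT replicate 2 as well, and Mt1 there lost most of it. The IL1α-/- samples lost much too. Their Mt2 fell from 19.0 and 25.9 CPM to 7.79 and 4.32 CPM, and their Mt1 from 101 and 140.4 CPM to 48.4 and 77.7 CPM. In T/NK-like cells Mt2 of both WT samples and Mt1 of WT replicate 1 cannot be told apart from free RNA.

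The make-up of the T/NK-like class also differed between hosts, and with it the cells that carried the metallothioneins. CD8 T cells (Cd8a or Cd8b1 with CD3, no Cd4) were 6.40% and 11.3% of the class in the WT hosts and 34.5% and 34.3% in the IL1α-/- hosts. Regulatory T cells (Foxp3 with CD3) were 8.61% and 8.53% against 1.13% and 2.88%. NK lineage cells were 33.6% and 31.1% against 20.9% and 15.9%. The CD8 T cells held 5.00% and 18.2% of the Mt3 UMIs in the WT hosts against 71.2% and 88.3% in the IL1α-/- hosts, while regulatory T cells held 55.0% and 38.2% against 0% and 0.669%.

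The CD8 T cells of the hosts lay in unlike clusters: the cluster led by Ccl5, Cd8b1, Pdcd1 and Havcr2 held 3 and 12 cells of the WT hosts and 750 and 458 of the IL1α-/- hosts. In that cluster the groups overlapped for all 3 metallothioneins. Its Mt1 was at 0 and 335 CPM in the WT hosts (0 and 17 UMIs) and at 158.9 and 214 CPM in the IL1α-/- hosts. Its Mt3 was at 0 and 19.7 CPM (0 UMIs and 1 UMI) against 14.7 and 38.8 CPM, so few cells of the WT hosts were there to compare.

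Over all CD8 T cells Mt3 was at 1.70 and 6.54 CPM in the WT hosts and at 21.8 and 61.3 CPM in the IL1α-/- hosts. Mt1 was at 8.49 and 43.2 CPM against 160.1 and 201 CPM, and Mt2 at 3.40 and 7.85 CPM against 30.6 and 39.0 CPM. None of the 3 overlapped between hosts. In the WT hosts these levels rest on 5 and 66 UMIs of Mt1 and on 2 and 12 of Mt2. Free RNA was not taken away within any subset. In the whole class of the WT hosts it took most or all of Mt1 and Mt2. Slc30a1 was at 10.2 and 7.20 CPM against 10.6 and 12.3 CPM (6 and 11 UMIs against 18 and 53). Mtf1 was at 15.3 and 16.4 CPM against 22.4 and 18.4 CPM (9 and 25 UMIs against 38 and 79). Neither gene overlapped between hosts, with ratios of means of 1.32 and 1.29. In the whole T/NK-like class both IL1α-/- samples lay above both WT samples for 24.7% of genes. Within CD8 T cells this share was not computed.

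CD4 T cells without Foxp3 had the same pattern for Mt1, at 19.1 and 27.9 CPM in the WT hosts and 361 and 162 CPM in the IL1α-/- hosts. Their Mt3 rested on 1 and 7 UMIs against 3 and 10. Regulatory T cells differed from both: their Mt3 was 15.9 and 19.0 CPM in the WT hosts against 0 and 11.7 CPM in the few left in IL1α-/- hosts (28 and 68 cells), and their Mt1 was 47.6 and 104 CPM against 0 and 105 CPM. In the WT hosts Mt3 was thus higher in regulatory T cells (11 and 21 UMIs) than in CD8 T cells (1 and 10 UMIs) in both samples. In the IL1α-/- hosts the values were lower in regulatory T cells, but they rest on 0 and 2 UMIs there. The 0 of IL1α-/- replicate 1 came from 28 cells, too few to set an order in that sample. NK lineage and γδ T cells had next to no Mt3, with 3 UMIs and 1 UMI over all 4 samples.

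All T/NK-like cells other than CD8 T cells had Mt3 at 2.47 and 4.31 CPM in the WT hosts and 7.07 and 7.35 CPM in the IL1α-/- hosts, a ratio of means of 2.12 where that of the whole class was 6.91. For Mt1 the ratio without CD8 T cells was 3.09, where that of the whole class was 5.56. The larger share of CD8 T cells therefore moved with the class-wide difference; how much of it this share accounts for was not tested, and the values within CD8 T cells and within their cluster are those given above.

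**Figure D4:**
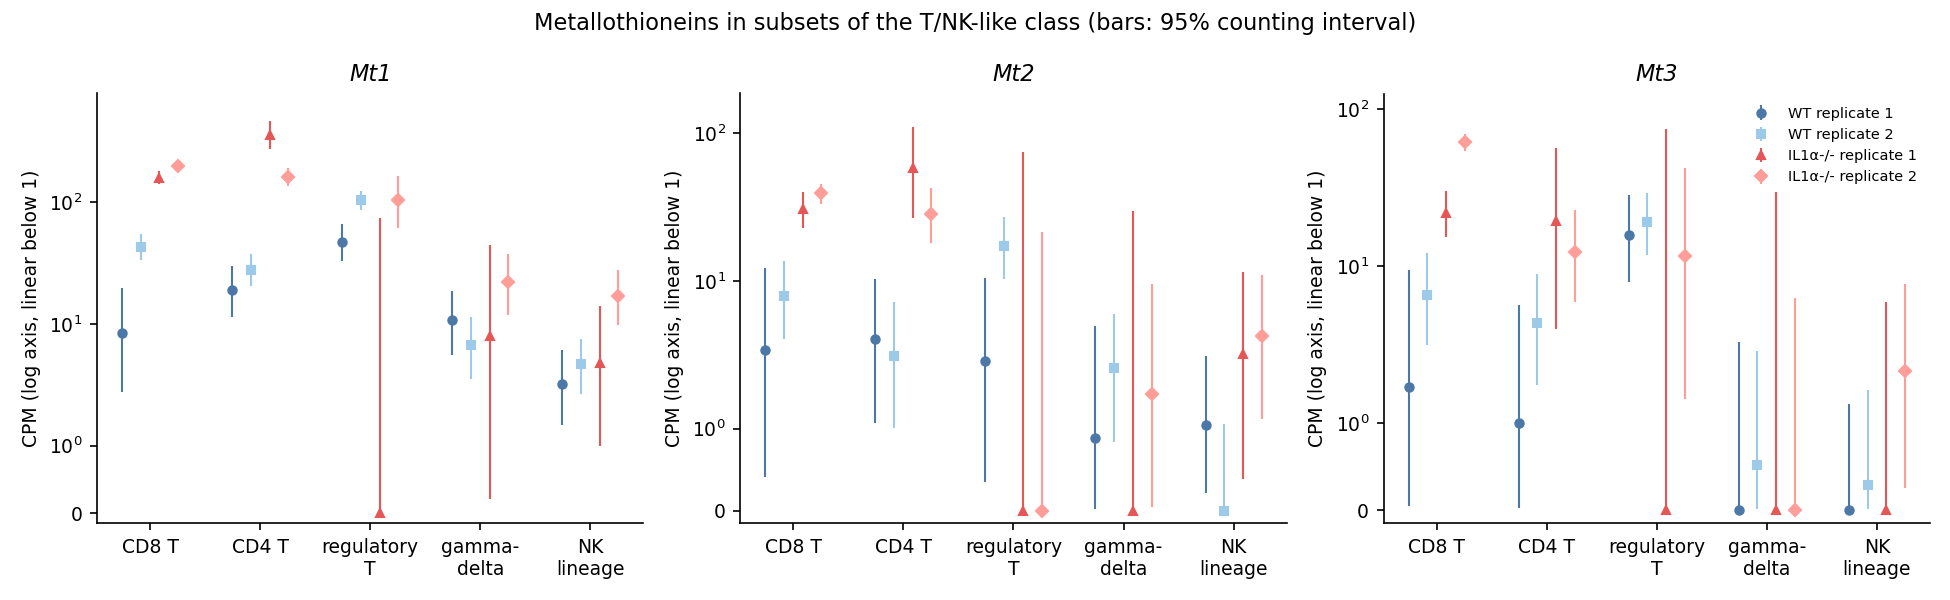
Mt1, Mt2 and Mt3 (CPM) in subsets of the T/NK-like class, 1 point per sample for the 2 WT and 2 IL1α-/- hosts, with 95% counting intervals. In CD8 T cells both IL1α-/- samples lie above both WT samples for all 3 genes, while NK lineage and γδ T cells lie near 0 for Mt3.

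Mt3 was higher in dividing than in other T/NK-like cells of every sample. T/NK-like cells with at least 2 UMIs of cycling genes, 5.30% to 12.5% of the class, had Mt3 at 5.68 and 14.1 CPM in the WT hosts and 44.4 and 77.9 CPM in the IL1α-/- hosts. The remaining T/NK-like cells had 1.81 and 1.37 CPM against 9.35 and 14.3 CPM. Mt1 was at 203 and 211 CPM in cycling and 86.1 and 107 CPM in other T/NK-like cells of the IL1α-/- hosts. Among CD8 T cells of the IL1α-/- hosts Mt3 was at 47.4 and 89.1 CPM in cycling and 13.9 and 31.4 CPM in other cells. Cycling cells were 6.76% and 12.5% of the class in the WT hosts and 5.30% and 12.0% in the IL1α-/- hosts; the cells were not thinned for this call, so these shares depend on depth and are not compared.

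Single cells were also read for more than 1 metallothionein. Among thinned T/NK-like cells with a UMI of Mt1, Mt2 was seen in 0 of 31, 1 of 33, 8 of 99 and 18 of 126 cells, which is 0%, 3.03%, 8.08% and 14.3%. In cells without Mt1 the share was 0.232%, 0.267%, 0.565% and 0.618%. Mt3 was seen in 3.23%, 3.03%, 4.04% and 6.35% of cells with Mt1 and in 0.0926%, 0.267%, 1.00% and 1.24% of those without. The percentages of Mt3 in cells with Mt1 rest on 1 cell each in the WT hosts and on 4 and 8 in the IL1α-/- hosts, and the class mixes subsets that hold both genes with subsets that hold neither. Within CD8 T cells Mt3 was seen in 0%, 0%, 3.75% and 8.82% of cells with Mt1 and in 0%, 0.766%, 1.64% and 2.89% of those without, so it was higher beside Mt1 in 2 of 4 samples. Mt2 was seen in 0%, 0%, 8.75% and 14.7% of CD8 T cells with Mt1 and in 0%, 0.383%, 1.04% and 0.825% of those without.

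Mononuclear phagocyte-like cells were the class outside lymphocytes in which Mt2 differed the most between hosts. Their Mt2 was at 59.2 and 46.8 CPM in the WT hosts and at 116 and 374 CPM in the IL1α-/- hosts. The groups did not overlap, but IL1α-/- replicate 2 was far above replicate 1. The log2 fold change of 2.35 ± 0.48 (SE, n = 2 each) did not pass the threshold (edgeR adjusted p = 0.0877). It was 1.07 without IL1α-/- replicate 2 (edgeR adjusted p = 0.320) and passed under 4 of 12 alternatives, DESeq2 among them (adjusted p = 0.000218), with adjusted p from 5.09e-14 to 0.758 over the 12.

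Mt1 in these phagocytes was at 891 and 461 CPM in the WT hosts and at 1073 and 1500.4 CPM in the IL1α-/- hosts, a log2 fold change of 0.98 ± 0.34 (SE) that did not pass (edgeR adjusted p = 0.254). Slc30a1 was at 22.5 and 31.3 CPM against 46.3 and 41.2 CPM, a log2 fold change of 0.69 ± 0.27 (SE; edgeR adjusted p = 0.317). Mt3 did not pass the filter on low counts in this class or in fibroblast-like cells. Mtf1, at 12.3 and 19.4 CPM against 20.3 and 9.16 CPM, had overlapping groups. For 3 of the 4 members tested both IL1α-/- samples lay above both WT samples, against 20.3% of the 8967 genes tested, and 0 of 4 passed the test, against 0.201% (0.167% higher and 0.0335% lower in the IL1α-/- hosts).

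The class was made of 2 clusters with unlike levels. The cluster led by Retnla and complement C1q genes had Mt2 at 68.5 and 51.9 CPM in the WT hosts and 143.7 and 434 CPM in the IL1α-/- hosts, and Mt1 at 1009.9, 506, 1289.9 and 1721 CPM. The cluster led by Ifitm6 and Lyz2 had Mt1 at 179, 76.4, 178 and 105 CPM and Mt2 at 3.58, 2.55, 0 and 0 CPM.

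In fibroblast-like cells Mt2 was at 632 and 489 CPM in the WT hosts and at 732 and 1286 CPM in the IL1α-/- hosts, beside the Mt1 values given above. The log2 fold changes were 0.95 ± 0.36 (SE) for Mt1 and 0.87 ± 0.39 (SE) for Mt2, and neither passed (edgeR adjusted p = 0.862 for both). Slc30a1 was at 16.3, 10.5, 15.9 and 8.58 CPM and Mtf1 at 8.61, 12.6, 14.7 and 14.1 CPM. No gene of 10039 passed in this class by edgeR (percent called 0), 494 had an unadjusted p under 0.05, and DESeq2 called 11. For 3 of the 4 members tested both IL1α-/- samples lay above both WT samples, against 16.6% of genes.

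The fibroblast-like class also had 2 clusters, and their balance moved with the replicate number and not with the host. The cluster led by Smpd3, Ptx3 and Pi16 held 292 and 54 cells in the WT hosts and 271 and 56 in the IL1α-/- hosts, and the cluster led by Cilp held 73 and 172 against 16 and 207. Mt1 was at 1964.5, 1798, 2670.0 and 1929 CPM in the first cluster, where the groups overlapped. In the Cilp cluster it was at 1618, 1217, 2528 and 3705 CPM, the last 2 values from the IL1α-/- hosts. Mt2 overlapped between hosts in both clusters, at 632, 845, 742 and 1103 CPM in the first and at 630.4, 406, 588 and 1312 CPM in the Cilp cluster.

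Conventional dendritic-like cells had Mt1 at 254 and 72.8 CPM in the WT hosts and at 414 and 664 CPM in the IL1α-/- hosts. The log2 fold change was 1.85 ± 0.49 (SE, edgeR adjusted p = 0.229). It was 3.01 without WT replicate 1, 1.14 without WT replicate 2, 2.14 without IL1α-/- replicate 1 and 1.37 without IL1α-/- replicate 2. By the marker gate 89 of these cells were conventional dendritic-like and 71 mononuclear phagocyte-like, the latter a class with higher Mt1. Gated conventional dendritic-like cells (32, 38, 13 and 22) had Mt1 at 269.8, 77.8, 409.9 and 299 CPM. Mt1 was the only member that passed the filter on low counts in this class, where 0.128% of 4700 genes were called; it was called under 5 of 11 alternatives, DESeq2 among them (adjusted p = 0.0369), with adjusted p from 3.47e-08 to 0.424 over the 11. The class was small, with 35 to 117 cells per sample, and with the upper amount of free RNA taken away Mt1 was at 171, 7.58, 254 and 514 CPM.

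Plasmacytoid dendritic-like cells had hardly any metallothionein, and the only member tested there was the zinc exporter. Slc30a1 was at 9.86 and 7.73 CPM in the WT hosts and at 27.4 and 28.5 CPM in the IL1α-/- hosts. These levels rest on 10 and 5 UMIs against 7 and 12. Both IL1α-/- samples lay above both WT samples, as they did for 21.5% of the genes tested in this class. The log2 fold change of 1.64 ± 0.50 (SE, n = 2 each) did not pass the threshold (edgeR adjusted p = 0.0905), where 2.4% of 5952 genes did (1.88% higher and 0.521% lower). It ran from 1.47 to 1.86 over the 12 alternatives, with adjusted p from 0.0412 to 0.718. No other member passed the filter on low counts here. Mt1 was at 3.95, 6.18, 11.7 and 11.9 CPM in these cells, and Mtf1 at 14.8, 20.1, 15.6 and 16.6 CPM.

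The other zinc transporters were read from a list of 24 genes. In plasmacytoid dendritic-like cells 12 were tested and 1 rose, Slc30a4, which moves zinc into vesicles. It was at 47.3 and 54.1 CPM in the WT hosts and at 106 and 154 CPM in the IL1α-/- hosts, a log2 fold change of 1.43 ± 0.27 (SE, edgeR adjusted p = 0.00588). Without IL1α-/- replicate 2 it was no longer called, and neither was it by DESeq2; the adjusted p ran up to 0.102 over 12 alternatives. The list's median log2 fold change was 0.19, against -0.01 over all genes tested in the class. No zinc transporter was called in T/NK-like (17 tested, median 0.03), mononuclear phagocyte-like (14, median 0.19), fibroblast-like (15, median -0.08) or conventional dendritic-like cells (4 tested). DESeq2 called none of the list in any class. At an unadjusted p under 0.05 there were 5, 2, 0 and 1 of them, in the order of classes just given. Over all genes tested such p-values numbered 2750 of 11079, 1260 of 8967, 494 of 10039 and 436 of 4700.

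The remaining lists were metal and redox genes (18), glucocorticoid response genes (12) and T cell activation and checkpoint genes (12), all chosen with earlier results known. Of 16 metal and redox genes tested in T/NK-like cells 0 rose and 1 fell, where 1.92% of all genes were called lower: Gclc, whose enzyme starts glutathione synthesis, was at 65.1 and 60.0 CPM in the WT hosts and 39.7 and 36.7 CPM in the IL1α-/- hosts (log2 fold change -0.68 ± 0.14, SE). DESeq2 did not call it, and neither was it called without either WT sample. In the other 4 classes edgeR and DESeq2 called 0 genes of this list, with 6, 5, 1 and 2 at an unadjusted p under 0.05 in mononuclear phagocyte-like, plasmacytoid dendritic-like, fibroblast-like and conventional dendritic-like cells. Over all genes tested such p-values numbered 1260 of 8967, 933 of 5952, 494 of 10039 and 436 of 4700 in these 4 classes.

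Of the 12 glucocorticoid response genes in T/NK-like cells 3 rose and 0 fell, where 2.98% of all genes were called higher. None of the 3 was called without WT replicate 2, and of these Sgk1 alone was called without WT replicate 1. Cdkn1a, a cell cycle inhibitor, was at 61.8 and 56.9 CPM in the WT hosts and 104 and 169.65 CPM in the IL1α-/- hosts. Sgk1, a kinase, was at 39.7 and 24.6 CPM against 62.5 and 82.9 CPM. Errfi1, an inhibitor of EGF receptors, was at 38.6 and 42.5 CPM against 85.3 and 76.1 CPM. Over the list in T/NK-like cells 8 of 12 log2 fold changes were above 0. Among those below 0 were Fkbp5 (-0.44) and Zbtb16 (-0.51), neither of them called. Tsc22d3 (0.73) and Per1 (0.62) were above 0 and were not called either. Cdkn1a also rose in plasmacytoid dendritic-like cells, from 20.7 and 27.8 CPM to 93.8 and 469.7 CPM (log2 fold change 3.66, edgeR adjusted p = 0.00028), as the only 1 of 7 tested there. All 7 had a log2 fold change above 0 in that class, Fkbp5 among them (0.83). Of the 7, 4 had an unadjusted p under 0.05, against 933 of 5952 genes tested. By edgeR 0 of 10 were called in mononuclear phagocyte-like cells, where DESeq2 called 3. Of the 10, 8 had an unadjusted p under 0.05, against 1260 of 8967 genes tested. Among these 8 Fkbp5 was lower in the IL1α-/- hosts, at 5.79 and 4.58 CPM against 10.7 and 11.2 CPM in the WT hosts. The log2 fold change was above 0 for 8 of the 10 genes, with a median of 0.97 against -0.02 over all genes. Fibroblast-like and conventional dendritic-like cells had 0 called by edgeR or DESeq2, with 3 and 2 at an unadjusted p under 0.05. Over all genes tested there 494 of 10039 and 436 of 4700 had such a p.

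T cell activation and checkpoint genes had the most calls in T/NK-like cells, where 7 of 12 rose and 1, Tnfrsf4, fell, against 2.98% of all genes called higher and 1.92% lower. These counts moved with the make-up of the class, whose share of CD8 T cells was 6.40% and 11.3% against 34.5% and 34.3%, and with the cluster led by Pdcd1 and Havcr2 among others, given above; the part of that make-up in the list's values was not tested. The median log2 fold change was 1.35, against -0.02 over all genes tested there. Havcr2, the checkpoint receptor TIM-3, was at 2.79 and 13.4 CPM in the WT hosts and 109 and 52.9 CPM in the IL1α-/- hosts. Lag3 was at 29.0 and 56.4 CPM against 259.5 and 103 CPM, and Pdcd1, which encodes PD-1, at 45.2 and 60.6 CPM against 232 and 119.55 CPM. Ctla4 and Entpd1, both linked to T cell inhibition, had log2 fold changes of 1.41 and 1.40. Of the 8 genes called, Havcr2 alone was called under all 12 alternatives. Lag3 was not called by DESeq2, by the marker gate or without either WT sample, Tnfrsf4 was not called under 5 of the 12, and the remaining 5 were not called without WT replicate 2. In mononuclear phagocyte-like cells Nr4a2 rose, by 1.56 on the log2 scale (edgeR adjusted p = 0.0405; at most 0.758 over 12 alternatives, of which 6 kept the call), as 1 of 7 tested. The other 3 classes had 0 of the list called by edgeR or DESeq2, with 1, 1 and 3 at an unadjusted p under 0.05 in plasmacytoid dendritic-like, fibroblast-like and conventional dendritic-like cells. Over all genes tested there 933 of 5952, 494 of 10039 and 436 of 4700 had such a p. The counts in T/NK-like cells changed with single samples: over all the lists 12 genes were called in this class, against 7 with WT replicate 1 left out, 2 with WT replicate 2 left out and 21 with IL1α-/- replicate 2 left out.

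Around the metallothionein cluster the neighbouring genes did not share the difference. Within 100 kb lie 7 protein-coding genes, the 4 metallothioneins included, and the log2 fold changes in T/NK-like cells were -0.14 for Ogfod1, 0.19 for Bbs2 and -0.11 for Nup93. None of these 3 passed the test.

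**Figure D5:**
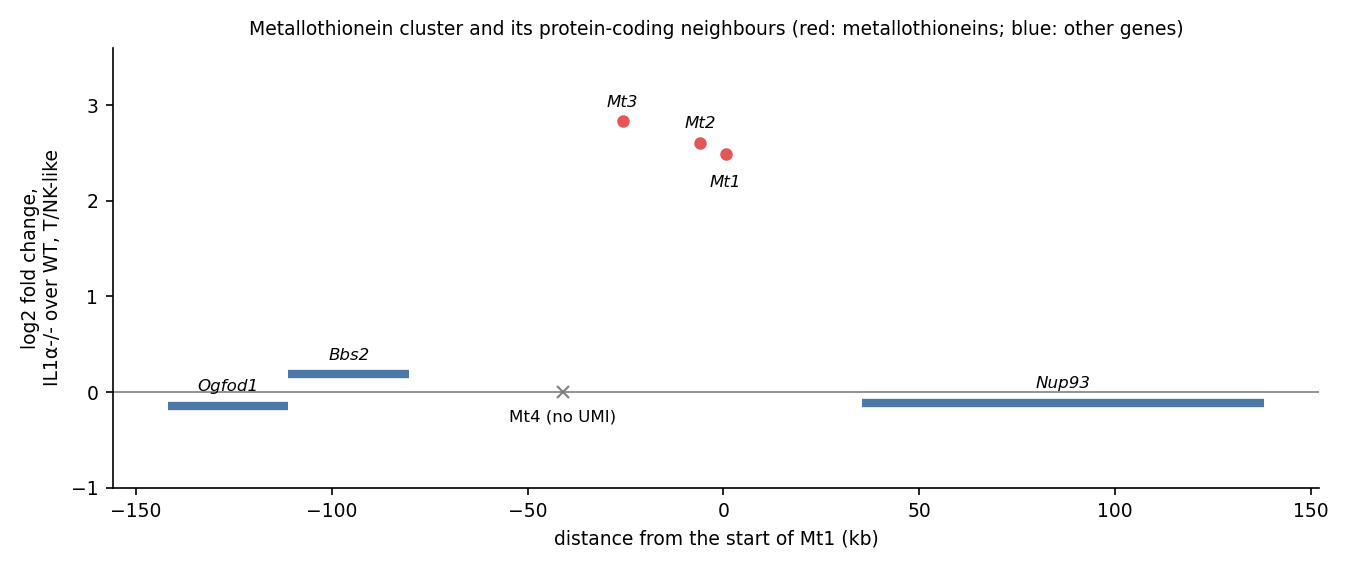
Log2 fold change in T/NK-like cells, IL1α-/- over WT hosts, of the metallothioneins and their neighbouring protein-coding genes against distance from the start of Mt1 in kb. Each horizontal bar spans the gene along the chromosome and is not an error bar. Mt1, Mt2 and Mt3 lie between 2.49 and 2.83, and the neighbours between -0.14 and 0.19.

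Across 26 class-by-sample sums and 11326 genes, on the log2(CPM + 10) scale, the genes with a pattern most like that of Mt1 included Sh3pxd2b (Pearson's r = 0.89), Mt2 (0.89), Anpep (0.87) and Map3k20 (0.86). Those most like Mt3 were Ifi206 (0.89), Crmp1 (0.88), Pdcd1 (0.85), Tff1 (0.85) and Stk32c (0.85). Between Mt1 and Mt3 r was -0.07. The sums of a sample share its library and depth, so these values describe the pattern and carry no test. T/NK-like cells held nearly all UMIs of Mt3, so its pattern rests mostly on the T/NK-like sums. The members were chosen on the host contrast in those cells, so the genes named beside Mt3 are no separate support.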

How the data were processed

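The authors deposited a matrix of whole-number UMI counts per gene and barcode for each of the 4 samples, against human and mouse genes together. Cell Ranger 3.1.0 and mm10 are named in the submitters' processing notes. Mouse genes were used, and the members' human counterparts had 0 UMIs. Barcodes with at least 500 mouse UMIs and 250 genes were kept, and those with over 20% mitochondrial UMIs, those not differing from free RNA (barcodes of at most 100 UMIs) and Scrublet doublets (424 in all) were removed. Cells were clustered with scanpy 1.11.5 and leidenalg 0.10.2 without the members and the zinc transporters, and clusters were named from markers by a rule set after the clusters were seen; 124 cells stayed unnamed. The members, markers and gene lists were chosen with earlier results of these data known.

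UMIs were summed per sample and class. Classes with at least 20 cells in every sample were tested with edgeR 4.0.16 (quasi-likelihood, TMM, low-count filter, 2 against 2 samples, Benjamini-Hochberg over all genes tested, threshold 0.05), which was tested on simulated data. Alternatives were DESeq2 1.42.0, other size factors, no filter, the replicate number as a block, leaving out each sample, other cell filters and a marker gate in place of clusters. Named from each list were the genes past the threshold, at most the 5 with the largest change in a class. The lists were Mt4, zinc transporters, metal and redox genes, glucocorticoid response genes, and T cell activation and checkpoint genes. Intervals are exact at 95%. Also named were the 5 genes with the highest correlation with Mt1 and with Mt3, of which 1 is not reported here.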

Additional observations from a re-analysis of the deposited data

How the results depend on the processing

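The counts of genes called depended on single samples and on the filter. In T/NK-like cells 543 were called, 1753 without the low-count filter, and 22 (without WT replicate 2) to 1480 (without IL1α-/- replicate 2) when 1 sample was left out, with 289 without WT replicate 1. In mononuclear phagocyte-like cells 18 were called, 42 with RLE size factors, 557 without the filter, 113 by DESeq2, 7 among cells of at least 1000 UMIs, 3 by the marker gate and 0 (without either WT sample) to 148 (without IL1α-/- replicate 1; 3 without replicate 2) when 1 sample was left out. For plasmacytoid dendritic-like cells the counts were 143, 232 without the filter, 66 by DESeq2, 79 with doublets kept and 76 by the marker gate. For conventional dendritic-like cells they were 6, 81 without the filter, 15 by DESeq2, 2 with doublets kept and 30 to 102 when any 1 sample was left out; the marker gate left under 20 cells in a sample. Fibroblast-like cells had 0, 197 without the filter and 11 by DESeq2. Samples share only a replicate number (same-number correlation 0.28, 0.055, 0.087, 0.018 and 0.42 in T/NK-like, mononuclear phagocyte-like, plasmacytoid dendritic-like, conventional dendritic-like and fibroblast-like cells). With the replicate number as a block 2233, 180, 346 and 106 genes were called in the first 4 of these, the Mt3 log2 fold change in T/NK-like cells was 2.81, and Mt1 in conventional dendritic-like cells (adjusted p = 9.76e-08), Mt2 in mononuclear phagocyte-like cells (adjusted p = 0.0312) and Slc30a1 in plasmacytoid dendritic-like cells (adjusted p = 0.0412) passed. The Mt3 log2 fold change in T/NK-like cells ran from 1.94 to 3.43 when 1 sample was left out and from 2.79 to 2.86 otherwise. A fit without 1 sample assumes that the lone sample of its group varies like the others. Directions flipped for Mtf1 in T/NK-like cells (0.08 without WT replicate 2, 0.14 without IL1α-/- replicate 2) and mononuclear phagocyte-like cells (0.05 and 0.24 without the same samples), and for Slc30a1 in fibroblast-like cells (0.14 without WT replicate 1, 0.25 without IL1α-/- replicate 2, 0.13 with doublets kept); without IL1α-/- replicate 1 these 3 were -0.19, -0.72 and -0.58. The difference in the share of T/NK-like cells with Mt1, in percentage points, was 4.32 at 1000 UMIs per cell, 2.42 at 500 and 5.56 unthinned, for Mt2 0.930, 0.557 and 1.74, and for Mt3 1.13, 0.407 and 2.84. For Mt1 in mononuclear phagocyte-like cells it was 10.7 at 1000 UMIs and -3.39 unthinned. The cause of these shifts was not tested.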

Other observations

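In near-empty droplets Mt2 was 18.1% and 17.9% (WT replicates 1 and 2) of the Mt1 and Mt2 UMIs. It was 17.6% and 25.6% in IL1α-/- replicates 1 and 2. These shares lay below those of fibroblast-like cells and above those of T/NK-like and mononuclear phagocyte-like cells in each sample. In the same order of samples T/NK-like cells held 112, 343, 372 and 1197 UMIs of Mt1. Fibroblast-like cells held 4203, 3672, 2349 and 6910. Which cells the free RNA came from was not tested. IL1α-/- replicate 2 also had the highest Mt2 share in mononuclear phagocyte-like cells, 19.97%. Its Mt2 level was the highest in each of fibroblast-like, mononuclear phagocyte-like, conventional dendritic-like and T/NK-like cells.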
